A study of Mus musculus domesticus with 18 samples.

Results

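Trim24 and the genes of retinoid signalling were described in the livers of wild house mice by 17 microarray probe sets of 9 genes: Trim24, Trim28, Trim33, Rara, Rarb, Rxra, Cyp26a1, Rbp4 and Lrat. These are all probe sets annotated to 1 of those symbols alone, out of 34945 probe sets with a single gene symbol, which cover 18193 genes. Livers came from 18 male mice (Mus musculus domesticus), 9 trapped around La Paz, Bolivia, at 3600 m and 9 around Lima, Peru, at 100 m. Each altitude had 3 trapping locations, A, B and C, with 3 mice each, and each mouse gave 1 Affymetrix array. A mouse is named by its altitude, location letter and number, as in high A4; the high location A mice are numbered 1, 2 and 4. All mice carry the strain label C57BL/6J although the titles and design text call them wild, and no treatment or age is given. Altitude coincides with city and mouse population, so these cannot be told apart. Trim24 was chosen with its altitude difference in these arrays known, so that difference is described here without a test. The other 8 genes were chosen for their link to Trim24 or to vitamin A.

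Vitamin A reaches its target cells as retinol bound to Rbp4, the plasma carrier that hepatocytes secrete, and is stored as retinyl ester by Lrat, the esterifying enzyme of hepatic stellate cells. Oxidation of retinol gives retinoic acid, the ligand of the receptors Rara and Rarb, which bind DNA as dimers with Rxra. Cyp26a1, a cytochrome P450, breaks retinoic acid down, and both Cyp26a1 and Rarb are textbook genes induced by retinoic acid itself. Trim24 (also called TIF1 alpha) is a coregulator that binds liganded nuclear receptors; in mouse liver it is known as a brake on Rara activity, and mice without it develop liver tumours. Its relatives are Trim28, the corepressor recruited by KRAB zinc finger proteins, and Trim33, a regulator of SMAD4 and TGF beta signalling.

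Levels are log2 values after RMA, a normalization that makes arrays comparable for 1 probe set but does not make probe sets comparable with each other. Array medians lay between 5.24 and 5.36 on the log2 scale. Precision is limited by having 18 arrays: over the single-gene probe sets, the altitude contrast had a median standard error of 0.0860 log2 units. All 8 measured hepatocyte markers were bright, with mean levels of 12.4 to 14.8, as fits the labelled tissue. In bulk liver, fewer cells of a type and less RNA per cell cannot be told apart. The Actb 3 prime minus 5 prime difference, a sign of RNA integrity, ran from 0.844 to 2.02 at high and from 0.975 to 1.45 at low altitude. The mean level of 10 lymphocyte and plasma cell markers ran from 6.16 to 7.14 at high and from 5.68 to 6.12 at low altitude. These ranges lay close but did not overlap, and the share of all probe sets with such a separation was not counted. Of the 10 markers, 2 passed the altitude test used below at an adjusted p under 0.05, as did 0.338% of all single-gene probe sets. The median probe set level was reached by 6 of the 10.

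Trim24 lay higher at high altitude in the brighter of its probe sets, 1427258_at. The 9 high altitude mice had log2 levels from 7.46 to 9.35 with a median of 8.22, and the 9 low altitude mice from 6.44 to 8.08 with a median of 6.86. The groups overlapped, but 6 high mice lay above every low mouse and 7 low mice lay below every high mouse. The means were 8.39 ± 0.68 and 7.10 ± 0.61 (SD, n = 9 each), a log2 difference of 1.29 ± 0.28 (SE) or 2.44-fold. All 9 high mice lay above the low altitude mean. The 3 high location means, 8.05 in A, 8.52 in B and 8.59 in C, all lay above the low location means of 7.32, 6.81 and 7.16. Location means were apart in this way for 14.2% of all single-gene probe sets, and nothing is read from it for Trim24, which was chosen on this contrast. The mean of the lymphocyte and plasma cell markers was higher in the high mice, as Trim24 was, though only 2 of the 10 markers passed the altitude test. The Actb difference averaged 1.40 in the high mice against 1.21 in the low mice. Its low altitude range lay inside its high altitude range, and a shift with altitude was not tested. With the Actb difference as a covariate the Trim24 difference was 1.10; the part of the lymphocyte markers was not tested.

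**Figure D1:**
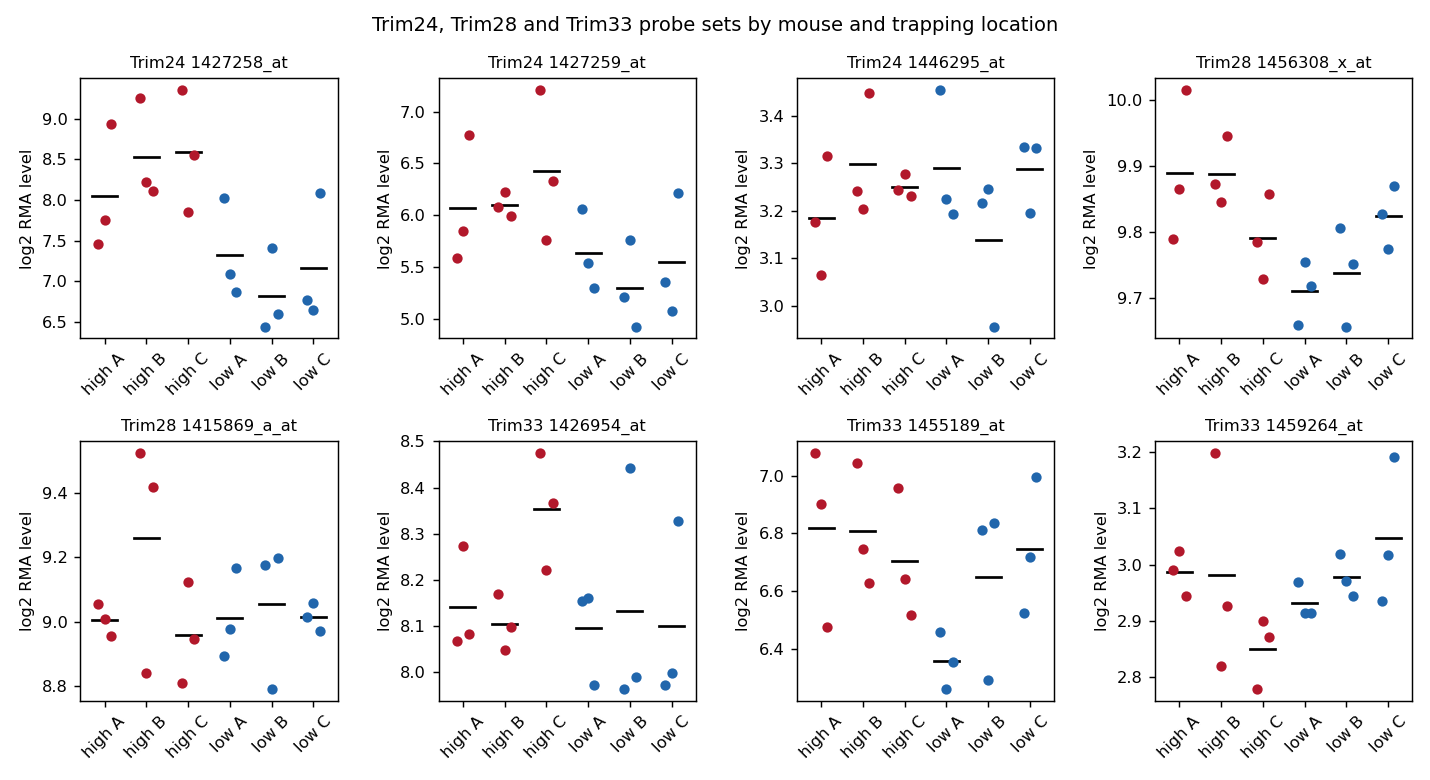
Log2 RMA level of each Trim24, Trim28 and Trim33 probe set in each mouse (points, red for high and blue for low altitude), by trapping location, with the location mean as a line (n = 3). The brightest Trim24 probe set has its 3 high location means (8.05 to 8.59) above its 3 low ones (6.81 to 7.32), while those of Trim28 probe set 1456308_x_at span 9.71 to 9.89 and those of Trim33 probe set 1426954_at 8.09 to 8.35. Each panel has its own vertical scale.

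The other Trim24 probe sets differed from the brightest. Probe set 1427259_at, made from the same sequence record as 1427258_at and thus not independent of it, had a mean of 6.20 ± 0.51 in the high and of 5.497 ± 0.44 in the low mice (SD, n = 9 each), a log2 difference of 0.70 or 1.63-fold. It ran from 5.59 to 7.21 in the high and from 4.93 to 6.22 in the low mice, so that 4 high mice lay above every low mouse. Probe set 1446295_at, at percentile 5.41 of all probe set levels, lay between 2.96 and 3.45 in all 18 mice and differed by 0.01. The levels of 1427258_at and 1427259_at were related across mice. After each value was centred on its location mean, their Pearson r was 0.895 over 18 mice (exact two-sided permutation within locations, p = 0.000729) and Spearman's rho 0.856 (p = 0.000686). Without high A4 and low C3, the mice farthest from the median, r was 0.846.

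Within each altitude the locations did not differ in Trim24 past the test. The high mice stood at 7.46, 7.75 and 8.94 in A, 9.25, 8.22 and 8.10 in B, and 9.35, 7.86 and 8.56 in C. The low mice stood at 8.02, 7.08 and 6.86 in A, 6.44, 7.40 and 6.59 in B, and 6.76, 6.64 and 8.08 in C. The highest mouse of each high location stood at 8.94, 9.25 and 9.35, and the highest low mice, A1 and C3, came from different locations. The location means were 0.543 apart at high and 0.511 apart at low altitude, and the SD inside locations was 0.52 to 0.80. The distance rested on single mice. At high altitude it was 0.249 without A1, 0.987 without A4 and 0.909 without C2, and 1.01 with mouse number as a block. Only high A4 has its number, so that block in effect leaves this mouse out. At low altitude the distance was 0.324 without B1 and 0.808 without B2. limma's moderated F test over the 3 locations gave adjusted p of 0.932 at high and 0.969 at low altitude over all single-gene probe sets. This contrast does not use the altitude difference.

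The relatives of Trim24 showed no altitude difference past the test. Trim28, in its brighter probe set 1456308_x_at, lay between 9.73 and 10.02 at high and between 9.66 and 9.87 at low altitude, with 3 high mice above every low mouse. Its log2 difference was 0.10 (95% interval -0.02 to 0.22, limma adjusted p = 0.586). The suffix x marks a probe set whose probes can bind other transcripts, and the other Trim28 probe set, 1415869_a_at, gave 0.05 (adjusted p = 0.922). Trim33 ranged from 8.05 to 8.48 at high and from 7.96 to 8.44 at low altitude in probe set 1426954_at, a difference of 0.09 (95% interval -0.08 to 0.27, adjusted p = 0.779). Its probe sets 1455189_at and 1459264_at gave 0.19 and -0.05 (adjusted p = 0.585 and 0.823), the latter among the dimmest of the array.

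No receptor passed the altitude test. Rara, the receptor that Trim24 restrains, had a mean of 5.92 ± 0.24 in the high and of 6.01 ± 0.28 in the low mice (SD, n = 9 each), and the mice overlapped from 5.53 to 6.17 and from 5.61 to 6.32. Its log2 difference was -0.09 (95% interval -0.33 to 0.16, adjusted p = 0.864). Rarb ran from 4.66 to 6.30 at high and from 5.01 to 6.39 at low altitude, a difference of -0.05 (95% interval -0.52 to 0.42, adjusted p = 0.968). Rxra, the common partner, lay near 10.4 at both altitudes in its brightest probe set, 1454773_at, with a difference of -0.07 (95% interval -0.37 to 0.23, adjusted p = 0.925). Its probe set 1425762_a_at gave -0.27 (adjusted p = 0.632), where 8 of 9 high mice lay below the low altitude mean and high A1, at 9.17, stood above the rest. The dim probe set 1430497_at gave 0.10 (adjusted p = 0.739).

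The retinoic acid target, transport and storage genes did not pass either. Cyp26a1 ran from 5.80 to 7.76 at high and from 5.93 to 7.45 at low altitude, with means of 6.80 ± 0.70 and 6.51 ± 0.54 (SD, n = 9 each). Its difference was 0.29 (95% interval -0.27 to 0.85, adjusted p = 0.783). Rbp4 was at percentile 99.93 of probe set levels, between 13.80 and 14.07 in the high and 13.94 and 14.06 in the low mice. It differed by -0.07 (95% interval -0.17 to 0.03, adjusted p = 0.662). Lrat, in its brighter probe set 1444487_at, averaged 6.93 at high and 6.92 at low altitude, a difference of 0.01 (95% interval -0.44 to 0.46, adjusted p = 0.994), and 0.08 in the dim probe set 1421345_at (adjusted p = 0.829).

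**Figure D2:**
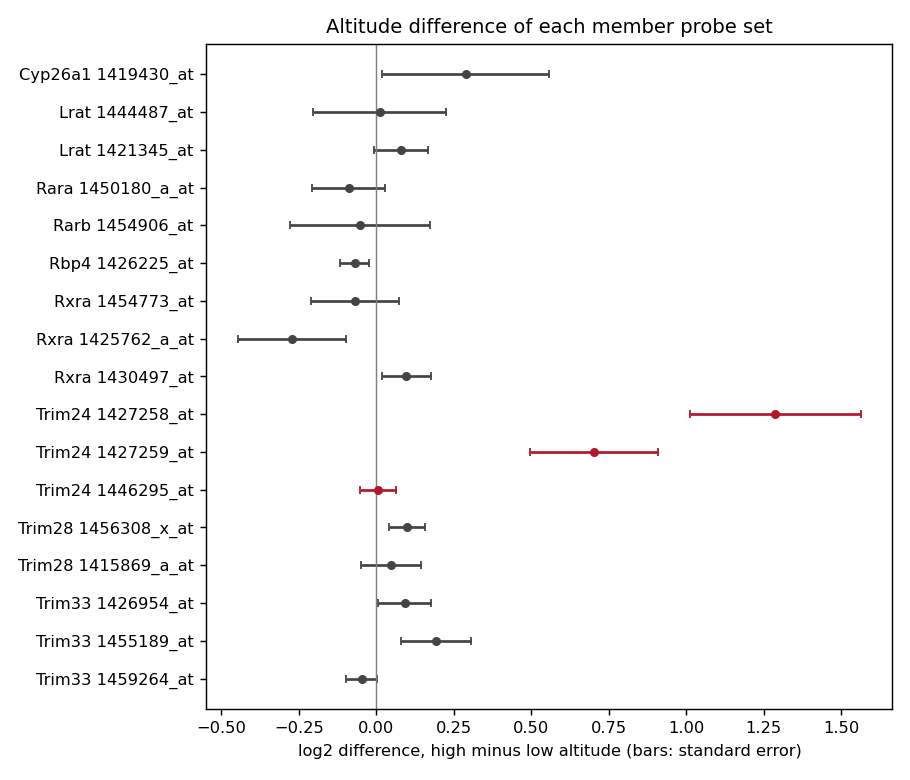
Log2 difference between altitudes (high minus low) of the 17 probe sets, with the standard error from limma as bars (n = 9 mice per altitude). The brightest Trim24 probe sets stand at 1.29 and 0.70, and the 14 probe sets of the other 8 genes lie between -0.27 and 0.29.

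In all, 0 of the 14 probe sets of the 8 other genes passed limma's altitude test at an adjusted p under 0.05, with 0 at an unadjusted p under 0.05. Over all 34945 single-gene probe sets 0.338% passed the adjusted test, 0.197% higher and 0.14% lower at high altitude, and 10.6% the unadjusted one. Of the 14 differences 8 were positive, with a median of 0.03, against a median of -0.0009 over all probe sets. Adjusted p ran from 0.585 to 0.994.

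Trapping location was the other factor, and Lrat was the gene with the widest separation. In the high altitude mice Lrat stood at 7.60, 7.40 and 7.63 in location A, 7.16, 6.49 and 6.75 in B, and 6.35, 5.96 and 7.05 in C. All 3 mice of A lay above all 6 of B and C, but the share of all probe sets with such a separation was not counted. The location means of 7.54, 6.80 and 6.45 were 1.09 apart, and limma's F test gave an adjusted p of 0.236 over all probe sets, so the difference did not pass. The dim Lrat probe set had the same order, with 3.96 in A, 3.67 in B and 3.53 in C (adjusted p = 0.358). Stellate cell markers other than Lrat, 13 genes, averaged 8.10 in A, 7.82 in B and 7.89 in C. Kupffer cell and macrophage markers averaged 10.02, 9.26 and 9.59, and lymphocyte and plasma cell markers 6.97, 6.42 and 6.33, so these lists too were highest in A. Hepatocyte markers (13.68, 13.67 and 13.77), endothelial markers (7.52, 7.45 and 7.59) and cholangiocyte markers (5.15, 5.23 and 5.22) were not. The part of the marker lists was not tested. In the low locations Lrat averaged 6.70, 6.94 and 7.11 (adjusted p = 0.943).

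Cyp26a1 had the widest spread of the low locations. The low mice stood at 5.93, 6.06 and 5.97 in A, 6.19, 6.54 and 6.64 in B, and 7.45, 6.55 and 7.24 in C. All A mice lay below all B and C mice, and B and C overlapped. Here too the share of all probe sets with such a separation was not counted. The means of 5.99, 6.46 and 7.08 were 1.09 apart (limma's F test, adjusted p = 0.782). At high altitude the Cyp26a1 means were 6.60, 6.86 and 6.94 and the mice overlapped fully (adjusted p = 0.975). Of the 17 probe sets, 0 passed the location test at either altitude, against 0.226% of all probe sets at high and 0.0715% at low altitude. The 2 with an unadjusted p under 0.05, both at high altitude, were those of Lrat, where 8.93% of all probe sets had such a p; at low altitude 6.48% did.

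**Figure D3:**
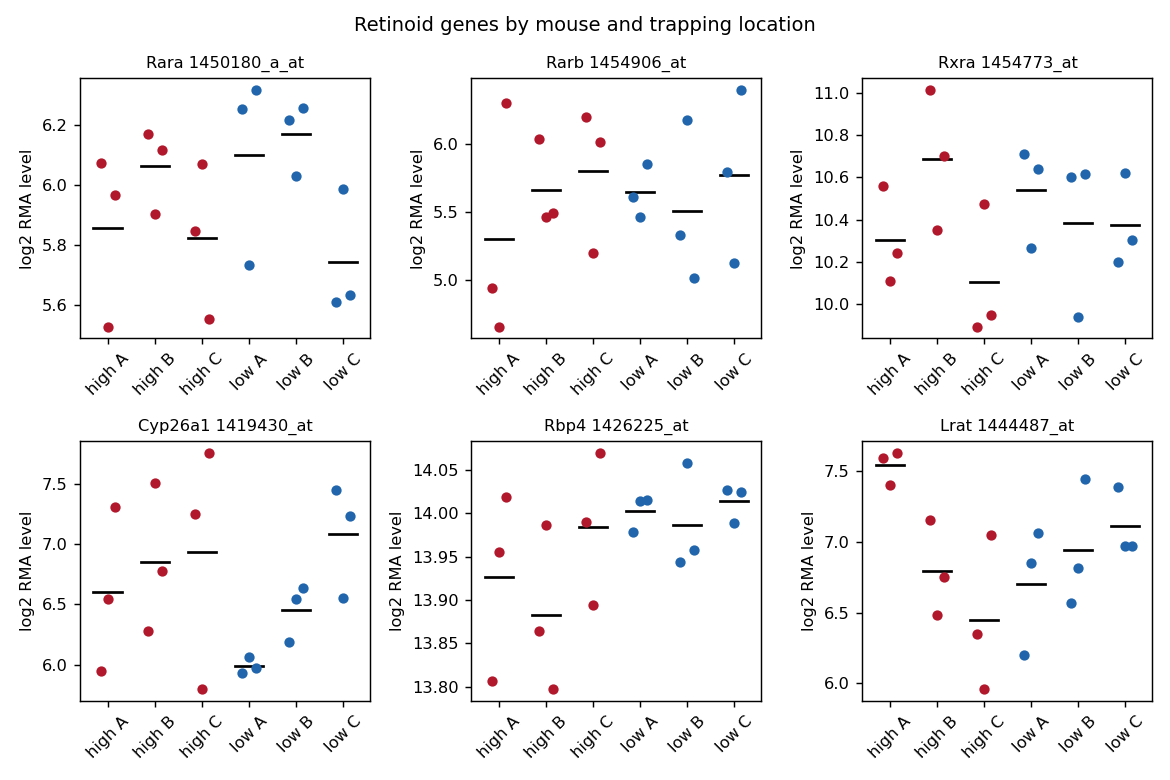
Log2 RMA level of the brightest probe set of Rara, Rarb, Rxra, Cyp26a1, Rbp4 and Lrat in each mouse (points, red for high and blue for low altitude), by trapping location, with the location mean as a line (n = 3). Lrat is highest in high location A (7.40 to 7.63) and Cyp26a1 lowest in low location A (5.93 to 6.06). Each panel has its own vertical scale.

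The relation of Trim24 to the retinoid genes was taken within locations, where altitude does not enter. Of the 14 probe sets, Rarb had the highest r with Trim24. In high location A, Rarb stood at 4.95, 4.66 and 6.30 in mice 1, 2 and 4, of which A4 also had the highest Trim24. In high location B it was 6.04, 5.46 and 5.49, highest in B1 as Trim24 was, and in high location C 6.20, 5.20 and 6.01, lowest in C2 as Trim24 was. In the low mice Rarb was 5.61, 5.46 and 5.86 in A, 5.33, 6.18 and 5.01 in B, and 5.80, 5.12 and 6.39 in C. The mouse with the highest Trim24 had the highest Rarb in B and C but not in A. Within-location r was positive in 5 of 6 locations, the exception being low A.

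Over 18 mice, with each value centred on its location mean, Trim24 and Rarb had a Pearson r of 0.808 (exact two-sided permutation within locations, p = 0.0021) and a Spearman's rho of 0.701 (p = 0.0144). Without high A4 and low C3 r was 0.720. The centred Trim24 levels left a gap: the highest mouse of each location, 6 in all, stood 0.593 to 0.919 above its location mean, and the other 12 stood between -0.734 and -0.0295. Of those 6 mice 5 also had Rarb above their location mean, 5 Trim33 and 4 Cyp26a1. Without centring, r was 0.915 within the 9 high altitude mice (exact permutation p = 0.00102) and 0.680 within the 9 low altitude mice (exact permutation p = 0.0471). Spearman's rho was 0.917 (exact permutation p = 0.00131) and 0.767 (exact permutation p = 0.0214). Without the 2 mice farthest from the median Trim24 level of each altitude r was 0.944 and 0.754. In limma's fit over all other probe sets the slope of Rarb was 0.67 ± 0.13 (SE) log2 units per log2 unit of Trim24, with an adjusted p of 0.0869 that did not pass the threshold. It passed without 1 mouse, low A1 (slope 0.77, adjusted p = 0.0458), and not without any other single mouse. Trim24 slopes passed for 0.0372% of the 34942 probe sets fitted, 13 in all (0.02% with a positive and 0.0172% with a negative slope). Among 12221 genes at or above the median level Rarb was the 35th by r, with 34 genes above it. With a mean of 5.61, at percentile 55.4 of probe set levels, Rarb lay close to the median level of 5.31. The slopes were 0.77 at high and 0.54 at low altitude, and limma's interaction term gave no difference past the test (adjusted p = 0.9999), as for all 14 probe sets, while 2.78% of all probe sets had an unadjusted interaction p under 0.05. The Actb difference had a location-centred r of 0.453 with Trim24 and 0.437 with Rarb (exact permutation p = 0.13 and 0.186), and with it as a covariate the Rarb slope was 0.64 (adjusted p = 0.174). Lymphocyte and plasma cell markers had an r of 0.512 with Trim24 and of 0.362 with Rarb (exact permutation p = 0.0996 and 0.236). Without centring, r was -0.19 and -0.28 in the high mice and 0.44 and 0.40 in the low mice. The part of these markers was not tested.

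**Figure D4:**
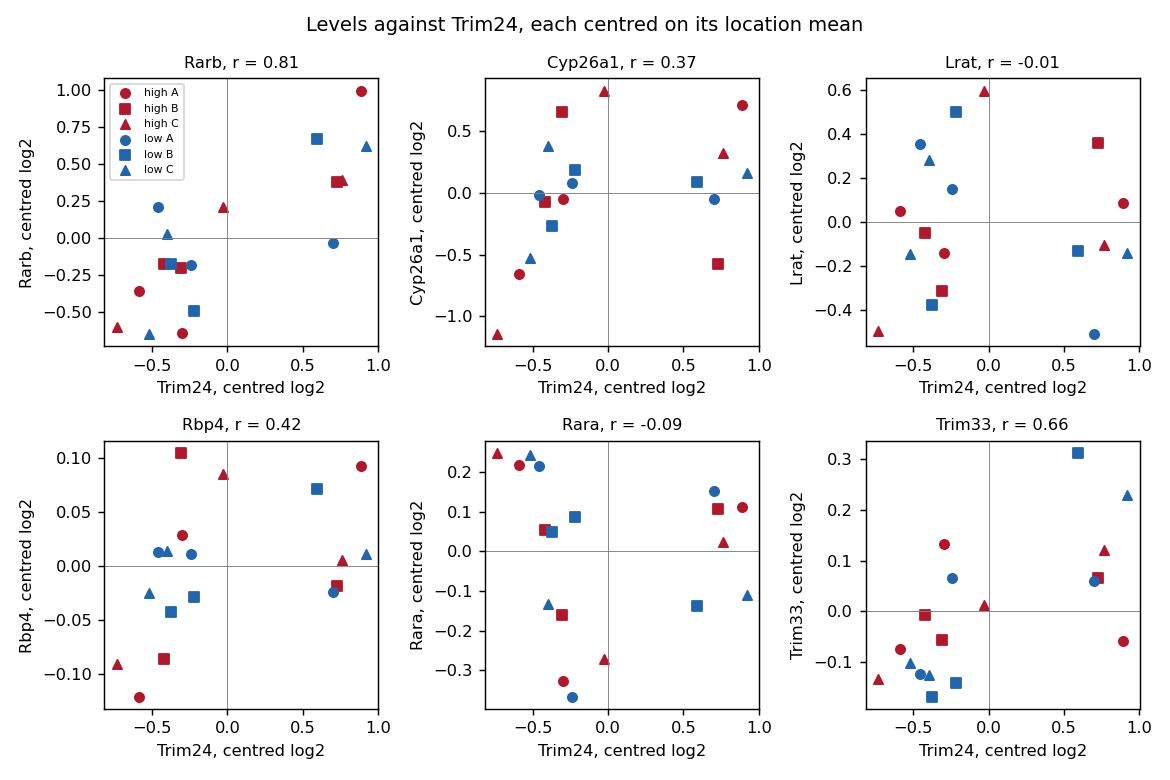
Log2 level of 6 genes against that of Trim24 in 18 mice, each value centred on the mean of its trapping location; colour marks the altitude and the symbol the location. Rarb has r = 0.81, while Lrat has r = -0.01 and Rara r = -0.09.

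The slopes of the other target, transport and storage genes on Trim24 did not pass either, and their difference from that of Rarb was not tested. Cyp26a1, the other textbook retinoic acid target, had a location-centred r of 0.366 (exact permutation p = 0.255) and a rho of 0.532 (p = 0.0916). Its r was 0.473 in the high and 0.0506 in the low mice (exact permutation p = 0.195 and 0.902). The slope was 0.32 ± 0.21 (SE, adjusted p = 0.709). Lrat had an r of -0.01 and a slope of -0.01 ± 0.15 (SE, adjusted p = 0.994), where the slope was 0.23 in the high and -0.30 in the low mice (interaction adjusted p = 0.9999). Rbp4 had an r of 0.418 (exact permutation p = 0.168), 0.422 in the high and 0.408 in the low mice, and a slope of 0.05 ± 0.04 (SE, adjusted p = 0.816).

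Among the receptors, Rara had an r of -0.0916 with Trim24 (exact permutation p = 0.757) and a slope adjusted p of 0.954. The brightest Rxra probe set had -0.254 (exact permutation p = 0.368, slope adjusted p = 0.839) and 1425762_a_at -0.433 (p = 0.151, slope adjusted p = 0.63). The latter had -0.684 in the high and -0.0994 in the low mice (exact permutation p = 0.0246 and 0.778). Trim33 had, in its brightest probe set, an r with Trim24 of 0.659 (exact permutation p = 0.0114), a rho of 0.620 (p = 0.0121) and an r of 0.708 without high A4 and low C3. Its r was 0.404 in the high and 0.746 in the low mice (exact permutation p = 0.28 and 0.0238), and its slope of 0.16 ± 0.07 (SE) had an adjusted p of 0.493. The next Trim33 probe set, 1455189_at, had an r of 0.0715, so its probe sets disagreed. Lymphocyte and plasma cell markers had an r of 0.525 with Trim33 and of 0.512 with Trim24 (exact permutation p = 0.0358 and 0.0996). Without centring, r was -0.22 and -0.19 in the high mice and 0.61 and 0.44 in the low mice. The part of these markers was not tested. The Trim28 probe sets had r of 0.232 and -0.302 (exact permutation p = 0.466 and 0.272), and the latter, 1415869_a_at, had 0.0181 in the high and -0.713 in the low mice (exact permutation p = 0.962 and 0.0331). Their Spearman's rho was 0.335 and -0.525 (exact permutation p = 0.263 and 0.0335). For 1415869_a_at rho was -0.317 in the high and -0.867 in the low mice (exact permutation p = 0.41 and 0.00451). In all, 14 probe sets were related to Trim24: 0 slopes passed the adjusted test and 2, those of Rarb and Trim33, had an unadjusted p under 0.05, as 8.96% of all probe sets did.

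**Figure D5:**
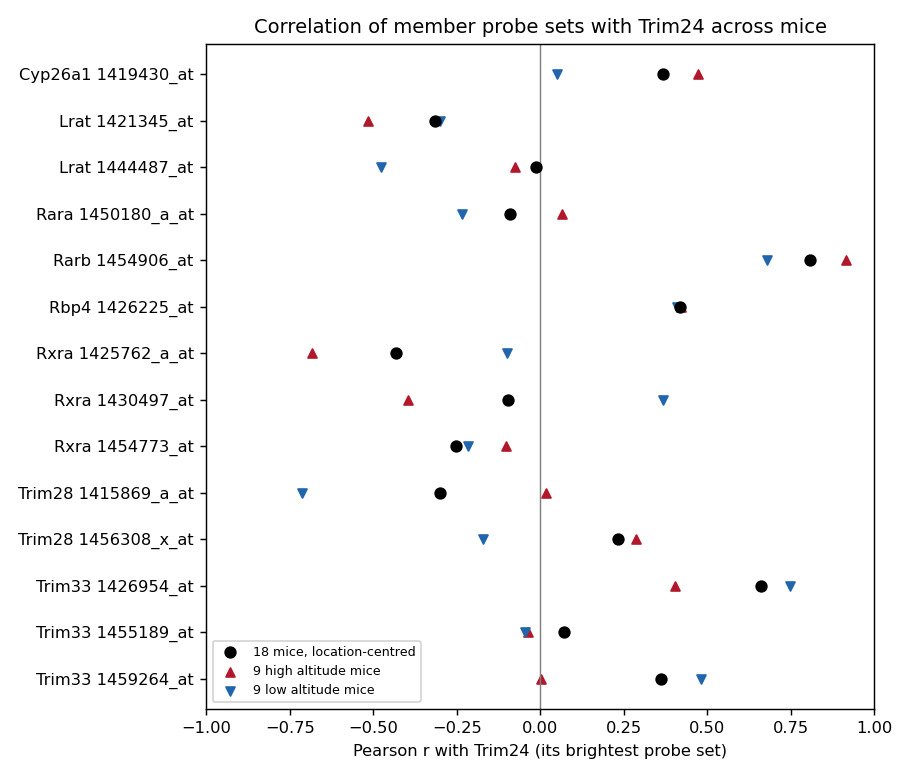
Pearson r of each of the 14 probe sets of the other genes with Trim24 probe set 1427258_at, over 18 mice with location-centred values (black), over the 9 high altitude mice (red) and over the 9 low altitude mice (blue). Rarb stands at 0.81, 0.91 and 0.68, the highest of the 14 over 18 mice and over the high mice, while Trim33 probe set 1426954_at is highest over the low mice, at 0.75.

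The retinoid genes were also set against each other in 6 pairs. These pairs were chosen after the data were seen, and their p-values do not allow for that choice. Rara and its partner Rxra had a location-centred r of 0.796 (exact two-sided permutation within locations, p = 0.000364), a rho of 0.839 (p = 0.0003) and an r of 0.798 without high A2 and low A2. Their r was positive in 6 of 6 locations, 0.812 within the high and 0.645 within the low mice (exact permutation p = 0.00717 and 0.0649). The limma slope on Rara of Rxra was 1.00 ± 0.23 (SE, adjusted p = 0.0505), which did not pass, in a fit where 1.2% of all probe sets did. It passed in 5 of 30 alternatives, among them those without high A4 (adjusted p = 0.0301) and without high C1 (adjusted p = 0.0407). More probe sets passed there too: 1202 without high A4 and 533 without high C1 out of 34944, against 420 in the main fit. With the Actb difference as a covariate the slope of Rxra on Rara was 1.09 (adjusted p = 0.0794), and 1 probe set passed in that fit in place of 420. Endothelial markers had an r of 0.601 with Rxra and of 0.521 with Rara (exact permutation p = 0.0343 and 0.0541), hepatocyte markers 0.559 and 0.389 (p = 0.0462 and 0.123), and cholangiocyte markers -0.596 and -0.315 (p = 0.0396 and 0.19). The other marker lists had r of 0.0566 to 0.388 with these genes, and the part of the markers was not tested. Rara and Cyp26a1 had a negative r in each location, with an r of -0.565 (exact permutation p = 0.048), a rho of -0.585 (p = 0.0337) and an r of -0.727 without high A2 and low A2. Their limma slope was -1.44 ± 0.55 (SE, adjusted p = 0.174). The targets Cyp26a1 and Rarb had an r of 0.500 (exact permutation p = 0.105, slope adjusted p = 0.254). The pairs of Cyp26a1 with Lrat, Rarb with Lrat and Rara with Rarb had r of 0.365, 0.209 and -0.0965 (exact permutation p = 0.299, 0.419 and 0.771).

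Genes with a pattern most like that of Trim24 were ranked by location-centred r over 18 mice. The highest were Abcc4, an efflux transporter of bile acids and nucleotides, at 0.917, Nudt19, a peroxisomal coenzyme A hydrolase, at 0.9004, Acot3, an acyl-CoA thioesterase, at 0.895, Klb, the co-receptor of FGF19 family hormones, at 0.893 and Usp22, a deubiquitinase, at 0.881. limma slopes on Trim24 passed for Abcc4 at 0.90 ± 0.11 (SE, adjusted p = 0.0127), Acot3 at 1.38 ± 0.18 (SE, adjusted p = 0.0215) and Klb at 0.47 ± 0.08 (SE, adjusted p = 0.046), and not for Nudt19 and Usp22 (adjusted p = 0.0614 and 0.13). The lowest were Ypel2 at -0.901, Gucd1 at -0.885, Pid1 at -0.880, Mroh3 at -0.874 and Gm9112 at -0.867. Of these, Ypel2 and Pid1 passed, with slopes of -0.63 and -0.54 (adjusted p = 0.044 and 0.0455). Without centring, r of the highest genes ran from 0.49 (Abcc4) to 0.87 in the high mice and from 0.61 to 0.81 in the low mice. That of the lowest genes ran from -0.93 to -0.54 (Ypel2) and from -0.85 to -0.74. Abcc4, with a mean of 5.39, lay close to the median level of 5.31. The gap in the centred Trim24 levels enters this ranking as it does the r of Rarb. Leaving out single mice ended calls for each of the genes that passed. When each of 18 mice was left out in turn, Abcc4 passed in 17 fits, failing without high A4 (adjusted p = 0.109), Acot3 in 13, Ypel2 in 7, Pid1 in 3 and Klb in 2, with slopes of unchanged sign. Acot3 failed without high A2, high A4, high C1, low A2 or low B2. With mouse number as a block, which in effect also leaves out high A4, none of the 5 passed (adjusted p from 0.234 to 0.285). With the Actb difference as a covariate Klb and Pid1 did not pass (adjusted p = 0.0536 for both). None of these 10 genes passed the altitude test, with log2 differences from -0.21 for Pid1 to 1.05 for Acot3 and adjusted p of at least 0.289.

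The wider pathway was looked at in lists of genes. Over all single-gene probe sets 0.338% passed the altitude test, so a 0 for a list of this size says little. Of 13 measured retinoic acid target genes 0 passed the altitude test; 7 differences were positive, the median was 0.01, and those with the smallest p were Tgm2, a transglutaminase, at 0.37 and Crabp2, a retinoic acid carrier, at 0.11 (adjusted p = 0.546 and 0.692). Of 17 genes for retinoid uptake, storage and transport 0 passed, with a median of 0.01; Bco2, a carotenoid cleaving enzyme, had 0.32 (adjusted p = 0.598). Of 24 measured genes listed under retinoid oxidation and reduction 0 passed, with a median of -0.02. An unadjusted p under 0.05 was found for 5 of them, against 10.6% of all probe sets. Aldh1a7, an aldehyde dehydrogenase, had a mean of 11.64 ± 0.64 in the high and of 10.91 ± 0.34 in the low mice (SD, n = 9 each), a difference of 0.73 (adjusted p = 0.171). Adh4, an alcohol dehydrogenase that accepts retinol, averaged 9.99 ± 0.94 against 10.98 ± 0.43 (SD, n = 9 each), a difference of -0.99 (adjusted p = 0.202). The rest of these 5, named after their values were seen, were lower at high altitude as Adh4 was. Rdh14 had -0.21, Dhrs4 -0.27 and Retsat -0.49 (adjusted p = 0.322, 0.45 and 0.467).

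Of 6 retinoid receptors 0 passed, with Rxrg at 0.19 and Rxrb at -0.07 (adjusted p = 0.735 and 0.837). Of 11 measured receptors that pair with retinoid X receptors 0 passed and 3 had an unadjusted p under 0.05, against 10.6% of all probe sets. Ppard, a fatty acid receptor, had 0.38 and Ppara, its liver relative, -1.06 (adjusted p = 0.352 and 0.379). Of 11 nuclear receptor coregulators 0 passed, with Ncoa2 at 0.16 and the deacetylase gene Hdac3 at -0.15 (adjusted p = 0.657 and 0.663). Of 12 relatives and silencing partners of Trim24, with Trim24 itself left out, 0 passed, with a median of -0.01. Atf7ip, the partner of the histone methyltransferase SETDB1, had 0.21 (adjusted p = 0.339).

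Since Trim24 is known to act on p53, targets of p53 were counted too. Of 11 p53 targets 0 passed and 2 had an unadjusted p under 0.05, while 9 differences were positive and the median was 0.14. Sesn1 had 0.30 and Gadd45a -0.52 (adjusted p = 0.339 and 0.422). Over all 34945 single-gene probe sets 17325 differences were positive, the median was -0.0009, and 10.6% had an unadjusted p under 0.05. Whether the p53 targets lean as a set was not tested. In the fit on Trim24, 0 genes of any of these 8 lists passed, against 0.0372% of all probe sets, so this 0 too says little. The smallest adjusted slope p was that of Rarb, and the next among the retinoid enzymes and targets, named after their values were seen, were Rdh9, a retinol dehydrogenase, with a slope of 0.97, Aldh1a1, a retinaldehyde dehydrogenase, with -0.38 and Rarres1, a retinoic acid responsive gene, with -1.82 (adjusted p = 0.172, 0.235 and 0.257).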

How the data were processed

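The deposited table held log2 values of 45101 probe sets on 18 arrays, made by the authors with RMA in the R package affy, per the submitters' processing notes, with no version named. That method subtracts background, equalises the distributions of the arrays and summarises the probes of a set, which squeezes dim probe sets towards a floor. Gene names came from GEO's platform annotation. No coordinates are printed, since the table names no build. The 64 control probe sets were left out, and 34945 probe sets with 1 gene symbol were fitted; 932 with several symbols and 9160 unlisted ones were not named. A gene outside the 9 members, and each list gene, was represented by its brightest probe set.

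limma 3.58.1 in R 4.3.3 was used for the altitude contrast, in which the location of trapping was a random block (consensus correlation 0.00465) with a mean-variance trend, for location means, and for slopes on the level of Trim24 probe set 1427258_at beside 6 location means. Tests were two-sided, with Benjamini-Hochberg adjustment over all probe sets fitted, at 0.05. The near-zero block correlation means that mice of 1 location count nearly as independent, and whether they do is not stated. Correlations were tested by exact permutation. The members, gene lists and tests were chosen with earlier results of these data known. One further gene list is not reported here. Named list genes were those past a threshold and the 2 with the smallest altitude p per list; the genes most like Trim24 were the 5 highest and 5 lowest by r. The 6 pairs of retinoid genes and their slopes were chosen after seeing the data. The fitting code was run on simulated data with planted changes and independent normal noise. The simulation had no array or RNA integrity effects, so it does not show how the tests behave in these arrays. Alternatives covered scaling, filters, features, moderation, array weights, location, mouse number, RNA integrity and leaving out mice or locations. Figures were drawn with matplotlib 3.10.9 in Python 3.11.15.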

Additional observations from a re-analysis of the deposited data

Results flagged for a closer look

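Each altitude's 9 mice were searched for a mouse far from the others in each of the 17 probe sets, 34 groups in all, and 2 were found; with Dixon's 95% critical value chance alone gives such a mouse in about 5% of groups. For Rxra probe set 1425762_a_at, high A1 stood at 9.169, and the next high altitude mouse at 8.589. For Trim33 probe set 1459264_at, one of the dimmest, low C3 stood at 3.192 and the next low altitude mouse at 3.019.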

How the results depend on the processing

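Over 35 alternatives the Trim24 difference between altitudes ran from 1.10 (Actb difference as a covariate) to 1.46 (without high location A), and from 1.17 to 1.41 when single mice were left out. Of the probe sets of the other 8 genes that each alternative fitted, 0 passed the altitude test in the 35, and 0 of all members fitted passed the location tests in 26. The sign of these uncalled differences turned in 11 alternatives for Lrat, 6 for Rarb and 1 for Rxra. Of 33 alternatives for the slopes on Trim24, 32 left 0 probe sets of the other genes past the threshold and 1 left 1. Without low A1, Rarb passed with a slope of 0.774. These fits held 14 such probe sets, but 11 without dim ones and 8 with 1 per gene. In some alternatives 0 of all 34942 probe sets passed, so a 0 for the members adds nothing. These were mouse number as a block, Trim24 probe set 1446295_at, altitude in place of location, either altitude alone and without high A4. Leaving out single mice, the number of members past the threshold ran from 0 to 1 and the Rarb slope from 0.55 to 0.774 (limma adjusted p 0.0458 to 0.294), and the cause was not tested. The slope of Rxra on Rara, added after seeing the data, ran from 0.81 to 1.13 with adjusted p from 0.0172 (arrays centred on their median) to 0.493. Over all single-gene probe sets the counts moved by over 1.5 times: from 118 by altitude to 0 with 1 mean per location and 199 with arrays centred on the brightest probe sets, from 79 over high locations to 32 and 326, from 25 over low locations to 10 and 98, from 13 slopes on Trim24 to 0 and 38, and from 420 slopes on Rara to 0 and 1436.

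Mouse numbers, apart from that of high A4, are shared between locations but did not pair the mice. Over 40 same-numbered pairs the correlation of deviations averaged -0.014, and 4 of 17 mice correlated best with their own number. As high A4 alone has its number, a block of mouse numbers in effect leaves that mouse out. With mouse number as a replicate block, the Trim24 difference was 1.23, the Rarb slope on Trim24 0.53 (adjusted p = 0.408), and 0 members passed any of the tests; 50 probe sets passed by altitude and 0 by slope on Trim24.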
